A study of Homo sapiens with 60 samples.

Results

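SKBR3 and C5.2 are human mammary lines with high HER2, the receptor tyrosine kinase encoded by ERBB2, and their transcript responses to rapamycin were compared. The comparison used 20 of the 60 arrays of the series: 5 SKBR3 arrays with rapamycin and 5 with vehicle, and 5 C5.2 arrays with rapamycin and 5 with vehicle. For each gene, rapamycin minus vehicle in C5.2 was subtracted from rapamycin minus vehicle in SKBR3, and all genes on the array were eligible, each through its brightest probe set. SKBR3 is a HER2-overexpressing mammary adenocarcinoma line. C5.2 was made from HB4a, a line of normal breast epithelium, by transfecting full-length HER2 cDNA, so its HER2 comes from a transgene. Rapamycin was given at 20 nM and the vehicle was DMSO. No treatment time is given in the labels. The HB4a and C5.2 medium held insulin and hydrocortisone and the SKBR3 medium did not, and seeding densities also differed, so line, medium and density cannot be told apart. Another 20 arrays held the same lines with doxorubicin at 30 nM in every group, 5 per line with rapamycin added and 5 per line without it. The 10 HB4a arrays with rapamycin or vehicle are given beside the results.

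Rapamycin binds FKBP1A, and the complex inhibits mTORC1, the kinase complex that couples growth factor and nutrient signals to protein, lipid and nucleotide synthesis. Active mTORC1 also restrains signalling through insulin receptor substrates and ERK, and its inhibition relieves that restraint. In many cells rapamycin slows entry into the cell cycle, and how strongly it does so differs between lines.

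Values are log2 units, so a difference of 1 is a 2-fold change. A gene was tested where its level passed 5 on at least 5 of the 20 arrays, which 6863 genes did. A gene was called at an adjusted p under 0.05 (limma, Benjamini-Hochberg over the 6863 genes). The number that ends each array title was used as a block within each line. That number is called the experiment here, though the labels do not say that it marks a shared day or culture. Rose and fell are used for called changes within a line, and higher and lower for called differences between the responses of the lines. ERBB2, the gene that both lines overexpress, averaged 11.69 ± 0.18 in SKBR3 with rapamycin and 11.48 ± 0.35 with vehicle, and 12.11 ± 0.06 in C5.2 with rapamycin and 12.06 ± 0.25 with vehicle (SD, n = 5 each), and the difference between its responses was not called (0.16 ± 0.11 SE, adjusted p = 0.3). MTOR itself was too dim to be tested. Luminal markers matched the label of SKBR3: 20 of 25 averaged over 5 in rapamycin arrays and 19 in vehicle arrays, against 10 and 12 in C5.2. Mesenchymal markers went the other way, with 1 and 2 of 19 over 5 in SKBR3, against 10 and 10 in C5.2, so C5.2 carried both luminal and mesenchymal transcripts. No leukocyte or endothelial marker reached the test. The SKBR3 vehicle array of experiment 3 held RNAs that the other SKBR3 arrays lacked and C5.2 expressed. LGALS3 read 6.61 there and 0.94 to 1.58 on the other SKBR3 vehicle arrays, and NNMT 6.22 against 0.36 to 0.92. These 2 had the largest excess among the listed markers of C5.2 and HB4a. For the 11 markers averaging under 3 on the other SKBR3 vehicle arrays and over 5 in C5.2 vehicle, the median excess was 2.02. ANXA1, 1 of them, had 0.26. Which line these RNAs came from was not tested. Counts without that array are given beside the main count and beside list counts that it changes. Whether replicates came from separate cultures is not stated, so p-values measure only the spread between these arrays.

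The rapamycin responses of SKBR3 and C5.2 differed at 1971 of 6863 genes (28.7%), 1058 higher in SKBR3 (15.4%) and 913 lower (13.3%). Large differences ran mostly one way: of the 143 called genes that differed by at least 1 log2 unit, 24 were higher and 119 lower. Among the 913 lower genes, 403 fell in SKBR3 with no call in C5.2, 251 rose in C5.2 with no call in SKBR3, and 93 fell in SKBR3 and rose in C5.2. Among the 1058 higher genes, 428 fell in C5.2 with no call in SKBR3, 407 rose in SKBR3 with no call in C5.2, and 89 rose in SKBR3 and fell in C5.2. Genes called in the same direction in both lines numbered 909, of which 262 rose and 647 fell, and 166 of these also differed in size between the lines. Within SKBR3, 1056 genes rose (15.4%) and 1457 fell (21.2%), and within C5.2, 826 rose (12%) and 1778 fell (25.9%). Quantile normalization turned the split within SKBR3, with 1369 that rose and 1291 that fell. Across the 6863 genes, which are not independent replicates, the responses of the lines correlated with Pearson's r of 0.22 and Spearman's rho of 0.21.

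Without the block, 356 genes were called (5.19%), 181 higher (2.64%) and 175 lower (2.55%), all among the 1971. Without the SKBR3 vehicle array of experiment 3, 1558 of 6819 were called (22.8%), 800 higher (11.7%) and 758 lower (11.1%), and without C5.2 experiment 2 the split turned, with 869 higher and 1204 lower. With no filter on low values the split also turned, with 1147 higher and 1339 lower. Centring each array on its median left 1338 higher and 850 lower. Of the 143 genes with a difference of at least 1 log2 unit, 104 were also called without the block. In 1035 of the 1971 called genes (52.5%) the 5 changes in SKBR3 did not overlap the 5 changes in C5.2, against 1114 of all genes tested (16.2%). The 1114 include the 1035, and the calls rest on the same changes. The larger share among called genes is therefore no separate support for the calls.

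**Figure D1:**
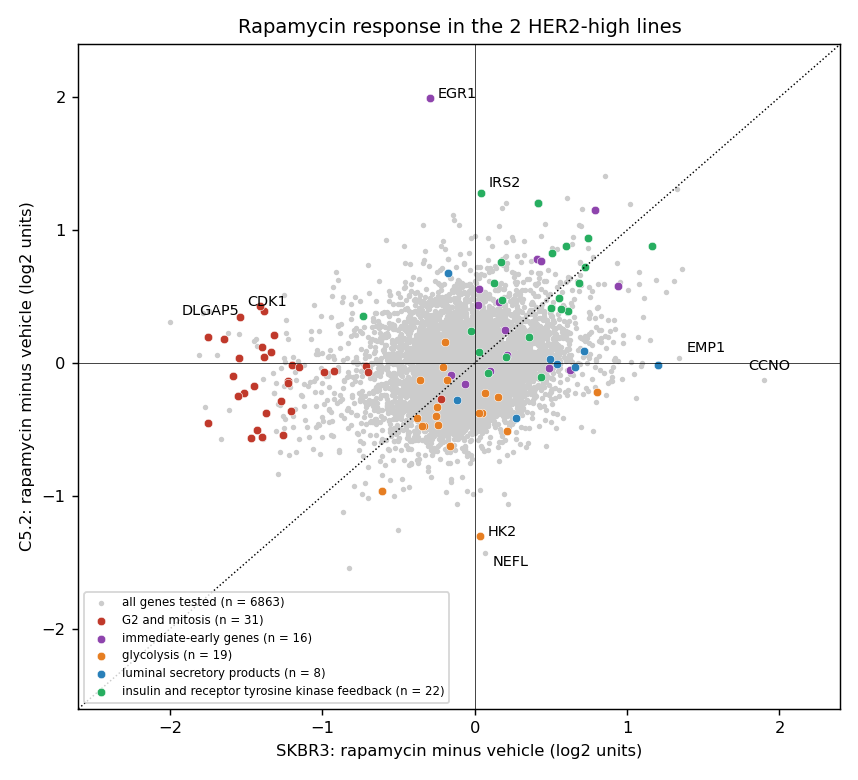
Rapamycin minus vehicle in SKBR3 (x axis, log2 units) against the same in C5.2 (y axis, log2 units), 1 point per gene tested, with 5 gene lists in colour and a dotted line where the responses are equal. The G2 and mitosis genes sit at the left, with a median of -1.38 in SKBR3 and -0.07 in C5.2, while EGR1 stands alone at the top with 1.99 in C5.2 and -0.30 in SKBR3.

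Genes of G2 and mitosis gave the most one-sided difference of the lists examined. Of 31 members tested, 30 were lower in SKBR3 than in C5.2 and none was higher, against 13.3% lower over all genes, and the median difference was -1.18 against 0.05 over all genes. All 30 fell in SKBR3, against 21.2% of all genes. In C5.2, 9 fell and 3 rose, shares near the 25.9% and 12% over all genes. The exception was CDC25B, the phosphatase that starts entry into mitosis, at 0.05. The call for 27 of the 30 members held without the block, and 30 members were lower without the SKBR3 vehicle array of experiment 3. The 30 lower members cover the successive steps of division. They include the mitotic kinase CDK1 and its cyclins CCNA2 (-1.49), CCNB1 (-0.93) and CCNB2 (-0.92), the kinetochore proteins NUF2 (-1.95) and NDC80 (-1.83), the checkpoint proteins BUB1B (-1.43) and MAD2L1 (-1.53), and the factor FOXM1 (-0.84), which drives transcription of many of these genes. These examples, apart from CDK1 and NUF2, were picked after their values were seen. The list's size of difference varied among members, with 19 of the 31 lower by 1 log2 unit or more.

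The median level over the list was 5.69, 5.52, 6.0, 6.12 and 5.48 in SKBR3 with rapamycin (experiments 1, 2, 3, 4 and 6), against 7.36, 6.88, 7.29, 7.22 and 6.91 in SKBR3 with vehicle. The SKBR3 groups did not overlap. In C5.2 the median level was 6.74, 6.40, 7.03, 6.84 and 7.02 with rapamycin, against 7.11, 6.69, 6.58, 6.52 and 6.69 with vehicle. The C5.2 groups overlapped, with experiments 1 and 2 lower and experiments 3, 4 and 6 higher under rapamycin. On bulk arrays, fewer cells in division and less of each RNA per dividing cell cannot be told apart.

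CDK1 had 6.94, 6.16, 6.77, 7.29 and 5.83 in SKBR3 with rapamycin, against 8.79, 7.68, 8.20, 8.35 and 7.68 with vehicle. In C5.2 it had 7.99, 6.73, 8.04, 7.73 and 7.62 with rapamycin, against 7.67, 6.91, 7.53, 7.10 and 7.15 with vehicle. It was thus lower under rapamycin in all 5 SKBR3 experiments and higher in 4 of 5 in C5.2, experiment 2 being the exception. CDK1 changed by -1.54 in SKBR3 and 0.35 in C5.2 (difference -1.89 ± 0.17 SE, adjusted p = 4.42e-06, and 0.00571 without the block). TOP2A, the topoisomerase that untangles sister chromatids and the target of doxorubicin, followed the same course, with 7.02, 6.30, 6.81, 7.75 and 7.07 in SKBR3 with rapamycin against 8.67, 7.59, 8.54, 8.68 and 8.49 with vehicle. In C5.2 it had 6.74, 5.88, 6.92, 6.71 and 7.02 with rapamycin, against 6.73, 5.91, 6.13, 5.98 and 6.35 with vehicle. The rise in C5.2 lay in experiments 3, 4 and 6, and the difference was -1.84 ± 0.19 SE (adjusted p = 1.33e-05).

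Several of the most negative differences belonged to genes that act in division. Among those below, DLGAP5, HMMR and CEP55 were on no list, and ANLN was on the G2 and mitosis list. DLGAP5, a spindle assembly protein, had the most negative difference at -2.31 ± 0.29 SE (adjusted p = 6.22e-05). It read 3.71, 3.0, 3.48, 4.27 and 2.60 in SKBR3 with rapamycin against 6.07, 4.59, 5.53, 5.53 and 5.35 with vehicle, and in C5.2 5.78, 4.49, 5.45, 5.73 and 5.73 with rapamycin against 5.55, 5.04, 4.98, 4.69 and 5.38 with vehicle. HMMR, a spindle and hyaluronan binding protein, was lower by a difference of -2.13 ± 0.26 SE, and CEP55, needed for the final cut between daughter cells, by -2.16 ± 0.21 SE. PBK, a mitotic kinase (-1.87), NEK2, a centrosome kinase (-1.76), CKAP2, a spindle protein (-1.76), ANLN, an actin binding protein of the cleavage furrow (-1.58), and NUSAP1, a spindle protein (-1.56), were also lower. CKAP2 and NUSAP1 rose in C5.2, by 0.51 and 0.32, while they fell in SKBR3. DLGAP5, CEP55 and NUF2 passed the measured limit (over 5 on 5 of 10 arrays) in C5.2 and missed it in SKBR3.

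Promoters of these genes are shown because many mitotic genes are known to share 2 short elements near the start site, the CHR (cell cycle genes homology region, TTTGAA) and the CCAAT box (CCAAT). Each line gives the 150 bases before the start of transcription on the strand of the gene, from RefSeq on GRCh38.p14, with matches to either element on either strand in capitals (reverse complements TTCAAA and ATTGG), overlapping matches included. HMMR and DLGAP5 were among the genes named by size, MKI67, a chromosome surface protein, and CCNB2 were chosen because they hold both elements, TOP2A holds the CCAAT box alone in this window, and CCNO, the gene with the most positive difference, holds neither.
HMMR, chr5:163460482-163460631, plus strand: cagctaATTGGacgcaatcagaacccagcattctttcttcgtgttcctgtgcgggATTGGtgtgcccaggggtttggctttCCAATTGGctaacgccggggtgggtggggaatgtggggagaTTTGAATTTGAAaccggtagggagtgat
DLGAP5, chr14:55191586-55191735, minus strand: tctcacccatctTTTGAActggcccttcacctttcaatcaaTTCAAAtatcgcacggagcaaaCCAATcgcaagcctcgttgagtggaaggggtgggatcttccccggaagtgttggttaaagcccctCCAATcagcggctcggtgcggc
MKI67, chr10:128126424-128126573, minus strand: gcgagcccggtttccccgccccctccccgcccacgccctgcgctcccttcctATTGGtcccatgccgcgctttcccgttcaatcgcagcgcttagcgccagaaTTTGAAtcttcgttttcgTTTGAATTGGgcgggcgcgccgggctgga
CCNB2, chr15:59104996-59105145, plus strand: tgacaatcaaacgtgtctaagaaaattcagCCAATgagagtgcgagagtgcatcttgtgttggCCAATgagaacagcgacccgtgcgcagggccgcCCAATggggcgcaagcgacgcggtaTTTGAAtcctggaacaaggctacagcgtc
TOP2A, chr17:40417897-40418046, minus strand: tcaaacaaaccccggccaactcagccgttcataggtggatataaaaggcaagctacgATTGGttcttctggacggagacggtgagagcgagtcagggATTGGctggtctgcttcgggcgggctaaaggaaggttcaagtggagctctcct
CCNO, chr5:55233609-55233758, minus strand: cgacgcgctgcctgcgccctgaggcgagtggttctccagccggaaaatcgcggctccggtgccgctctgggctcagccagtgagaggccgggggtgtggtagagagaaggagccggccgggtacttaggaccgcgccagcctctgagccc

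In HMMR the CHR stood as a tandem pair starting 28 bases before the start site, next to 4 CCAAT matches further upstream, and CCNB2 had a CHR at 29 bases and 3 CCAAT matches upstream of it. The printed promoters do not stand for every gene on either side. In the same window EMP1 and HK2, which had positive differences, held a CHR and 2 CCAAT matches. NUF2, NDC80, MAD2L1 and POLE2, which had negative differences, held neither element there. Counted over RefSeq promoters of 250 bases before to 50 after the start, the CHR was found in 16 of the 25 G2 and mitosis genes with a promoter entry (64%), against 517 of 5771 genes tested (8.96%) and 4212 of 27305 promoters in the table (15.4%). The CCAAT box was found in 18 of 25 (72%), against 37.9% of genes tested and 35.7% of all promoters, and both elements together in 12 of 25 (48%), against 3.95% and 6.08%. Among all called genes lower by 1 log2 unit or more, 41 of 102 with an entry held the CHR (40.2%), and among those higher by as much, 2 of 17. The E2F element, the E-box and the CRE were searched in the same way. The E2F element (TTTCCCGC or TTTGGCGC) was in 1 of the 25, the E-box (CACGTG) in 3 and the CRE (TGACGTCA) in 3, against 4.21%, 10.7% and 3.41% of genes tested. A match is a run of letters and not a shown binding site, and the elements were chosen after the list counts were seen.

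Genes of DNA replication and the G1/S step differed in the same direction by less. Of 38 members tested, 19 were lower in SKBR3 than in C5.2 and none was higher, against 13.3% and 15.4% over all genes. The median difference was -0.34. Without the SKBR3 vehicle array of experiment 3, 18 were lower, against 11.1% over all genes. Within SKBR3 32 members fell (median -0.61), against 21.2% of all genes. Within C5.2 18 fell (median -0.24) and 1 rose, against 25.9% and 12% of all genes. The median level over the list was 6.14, 5.83, 5.91, 6.03 and 5.88 in SKBR3 with rapamycin, against 6.65, 6.19, 6.26, 6.37 and 6.15 with vehicle, and 6.89, 6.76, 6.65, 6.78 and 6.96 in C5.2 with rapamycin, against 7.0, 7.17, 7.05, 7.18 and 7.13 with vehicle. The list was lower under rapamycin in all 10 experiments. POLE2, a subunit of DNA polymerase epsilon, had the most negative difference (-1.56 ± 0.17 SE), at levels of 3.10 to 5.40 over the 4 groups. It passed the measured limit in neither line. MCM10, a helicase activator, fell in both lines, by 1.66 in SKBR3 and by 0.57 in C5.2 (difference -1.09 ± 0.16 SE). It missed the measured limit in SKBR3, where its mean with rapamycin was 3.14. PRIM1, the catalytic primase subunit, fell in SKBR3 by 0.41 and rose in C5.2 by 0.65, and it was picked after its values were seen. The licensing factor CDC6, the origin protein ORC6 and the loader MCM3 did not pass the test of the difference, at -0.23, -0.19 and -0.17. Without the block 8 members were lower, against 2.55% over all genes. The E2F element was in 16 of the 34 members with a promoter entry (47.1%), against 4.21% of genes tested, and the CHR in 1.

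TYMS, the thymidylate synthase that makes the thymidine nucleotide for DNA, had one of the tightest differences. It read 7.52, 7.05, 7.60, 7.65 and 7.65 in SKBR3 with rapamycin, against 8.94, 8.49, 8.85, 8.90 and 8.55 with vehicle. In C5.2 it read 10.11, 10.01, 10.05, 10.11 and 10.13 with rapamycin, against 10.27, 10.21, 10.24, 10.37 and 10.19 with vehicle. The groups did not overlap in either line, and the change was -1.25 in SKBR3 and -0.17 in C5.2 (difference -1.08 ± 0.09 SE, adjusted p = 3.93e-06). Of the 16 genes of nucleotide synthesis tested, 4 were higher and 5 lower, against 15.4% and 13.3% over all genes. The higher ones included ADSL, a purine synthesis enzyme that rose by 0.29 in SKBR3 and fell by 0.35 in C5.2, and IMPDH2, the rate-limiting enzyme of guanine nucleotide synthesis (difference 0.53 ± 0.08 SE). The lower ones included PPAT, which commits to purine synthesis (difference -0.75 ± 0.19 SE).

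**Figure D2:**
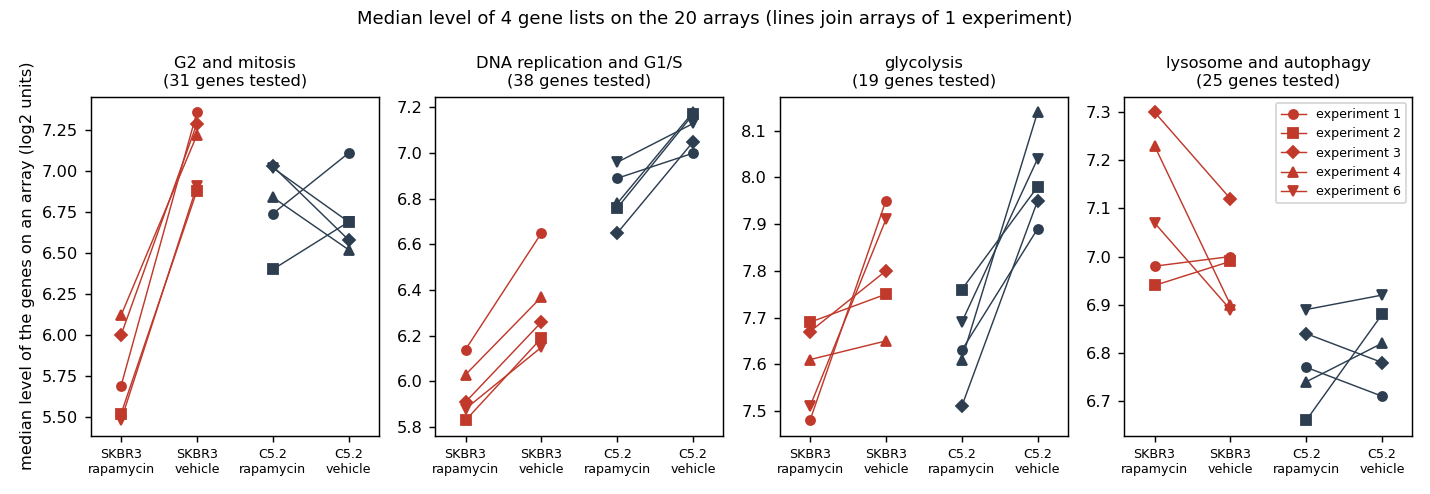
Median log2 level of the members tested of 4 lists (y axis) on each of the 20 arrays (x axis, group), with a line joining the rapamycin and vehicle arrays of 1 experiment and its own scale in each panel. The G2 and mitosis median was 5.48 to 6.12 in SKBR3 with rapamycin against 6.88 to 7.36 with vehicle, while the C5.2 groups overlapped.

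CCNO, a cyclin-like protein known for its part in centriole amplification in ciliated cells, had the most positive difference. It had 5.57, 5.76, 6.06, 6.12 and 5.61 in SKBR3 with rapamycin, against 3.56, 4.15, 4.08, 3.79 and 4.07 with vehicle. In C5.2 it stayed below 5, at 3.69, 3.76, 3.60, 3.65 and 3.60 with rapamycin against 3.94, 4.13, 3.68, 3.53 and 3.67 with vehicle. Its difference was 2.03 ± 0.16 SE (adjusted p = 2.62e-06, and 5.13e-06 without the block), and it rested on SKBR3, since CCNO was not measured in C5.2.

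EMP1, an epithelial membrane protein, was measured in both lines. It had 7.84, 7.72, 7.86, 7.94 and 7.71 in SKBR3 with rapamycin, against 6.58, 6.26, 6.70, 6.62 and 6.19 with vehicle. In C5.2 it had 9.12, 8.54, 9.62, 9.53 and 9.39 with rapamycin, against 9.14, 8.84, 9.47, 9.40 and 9.19 with vehicle. EMP1 thus rose by 1.34 in SKBR3, without overlap between groups, toward the level that C5.2 held with either treatment (difference 1.31 ± 0.11 SE, adjusted p = 2.62e-06).

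HILPDA, a lipid droplet protein induced by hypoxia, moved in opposite directions. It had 9.75, 9.83, 9.42, 9.44 and 9.23 in SKBR3 with rapamycin against 8.97, 9.12, 8.65, 8.46 and 8.59 with vehicle, and in C5.2 6.37, 6.26, 5.90, 6.11 and 6.35 with rapamycin against 6.79, 6.94, 6.5, 6.51 and 6.80 with vehicle. It rose by 0.77 in SKBR3 and fell by 0.51 in C5.2, in all 5 experiments of each line (difference 1.28 ± 0.09 SE, adjusted p = 1.39e-06). SDC1, the heparan sulphate proteoglycan syndecan-1, had the same pattern, with 9.28 ± 0.23 in SKBR3 with rapamycin against 8.74 ± 0.26 with vehicle, and 5.71 ± 0.22 in C5.2 with rapamycin against 6.19 ± 0.20 with vehicle (SD, n = 5 each), for a difference of 1.02 ± 0.11 SE. CEBPD, a transcription factor of inflammation and differentiation (1.09 ± 0.12 SE), LMCD1, a LIM domain cofactor (1.11 ± 0.12 SE), and NET1, an exchange factor for RhoA (0.99 ± 0.13 SE), likewise rose in SKBR3 and fell in C5.2. STEAP4, a metalloreductase (1.02), CSNK2A2, a catalytic subunit of casein kinase 2 (1.02), and NOB1, an endonuclease that finishes the small ribosomal subunit (0.97), rose in SKBR3 and were not called in C5.2, and STEAP4 was not called without the block (adjusted p = 0.17).

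NEFL, a neurofilament subunit, was measured in C5.2 alone. It lay at -0.13 to 0.28 on all SKBR3 arrays, while in C5.2 it read 4.58 ± 0.15 with rapamycin against 6.0 ± 0.21 with vehicle (SD, n = 5 each). Its difference of 1.49 ± 0.16 SE rested on C5.2, where it fell by 1.43.

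**Figure D3:**
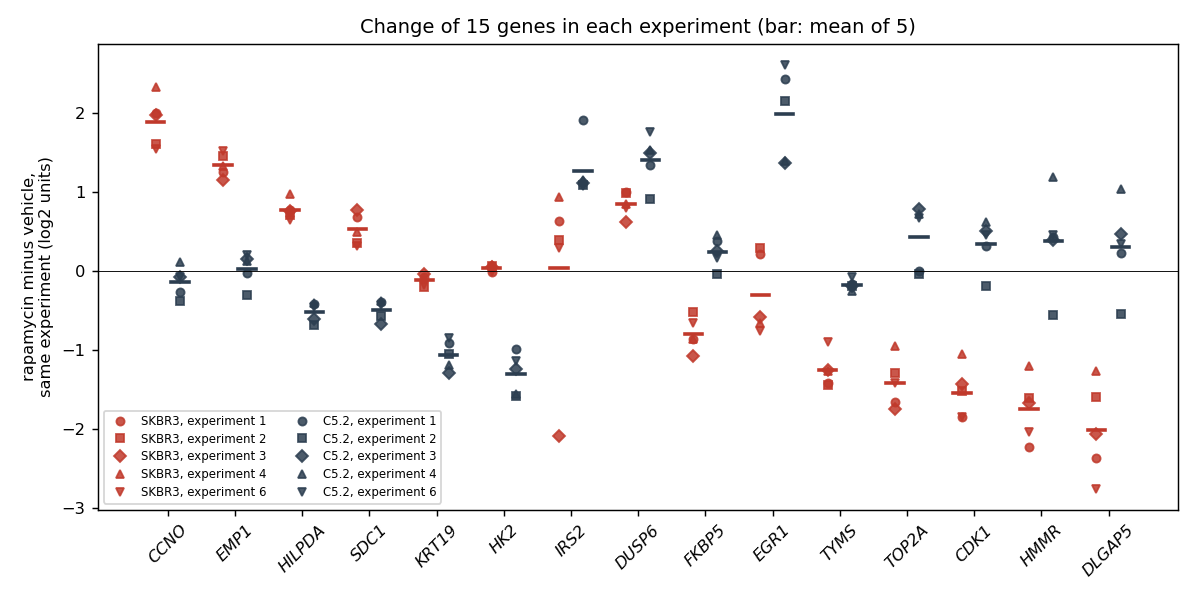
Rapamycin minus vehicle within each experiment (y axis, log2 units) for 15 genes (x axis), SKBR3 in red to the left and C5.2 in dark blue to the right of each, with 1 symbol per experiment and a bar at the mean of 5. HILPDA and SDC1 lie above 0 in every SKBR3 experiment and below 0 in every C5.2 experiment, CDK1 and DLGAP5 lie below 0 in every SKBR3 experiment, and IRS2 in SKBR3 experiment 3 stands at -2.08.

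Of 19 glycolysis genes tested, 10 were higher in SKBR3 than in C5.2 and none was lower, against 15.4% higher over all genes, with a median difference of 0.22. In SKBR3, 9 fell and 1 rose (median -0.19), against 21.2% and 15.4% of all genes, and in C5.2 14 fell and none rose (median -0.37), against 25.9% and 12%. HK2, the hexokinase that traps glucose in the cell, read 6.88, 7.03, 7.49, 7.57 and 7.16 in SKBR3 with rapamycin against 6.89, 6.96, 7.43, 7.49 and 7.17 with vehicle, and 3.59, 2.79, 2.95, 3.27 and 4.15 in C5.2 with rapamycin against 4.58, 4.36, 4.19, 4.82 and 5.29 with vehicle. The SKBR3 arrays of each experiment lay within 0.08 of each other, and all 5 C5.2 experiments fell, at levels mostly under 5 (difference 1.34 ± 0.13 SE, adjusted p = 9.86e-06). PFKFB3, which makes the activator of phosphofructokinase, rose by 0.80 in SKBR3 and was not called in C5.2 at -0.22 (difference 1.02 ± 0.14 SE). SLC2A1, the glucose transporter GLUT1, had a difference of 0.72 and fell by 0.51 in C5.2, and was picked after its values were seen. TPI1 (-0.38 in SKBR3 and -0.41 in C5.2) and ALDOA (-0.25 and -0.33), enzymes further along the pathway, fell in both lines. Neither passed the test of the difference. Without the block 5 members were higher, against 2.64% over all genes. Without the SKBR3 vehicle array of experiment 3 also 5 were higher, against 11.7%.

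Of 11 fatty acid synthesis genes tested, 2 were higher, a share near the 15.4% over all genes, and none was lower (median -0.06). SCD, the desaturase that makes monounsaturated fatty acids, read 9.31 ± 0.29 in SKBR3 with rapamycin against 9.46 ± 0.32 with vehicle, and 6.02 ± 0.27 in C5.2 with rapamycin against 6.89 ± 0.23 with vehicle (SD, n = 5 each), for a difference of 0.72 ± 0.12 SE. SREBF1, which encodes the transcription factor of fatty acid synthesis, was higher by 0.73 ± 0.14 SE, and these were the 2 called genes. SREBF1 was not measured in C5.2, where it averaged 3.65 with rapamycin and 4.20 with vehicle and fell by 0.55. In SKBR3 it was not called (0.18). Of 13 cholesterol synthesis genes, 8 fell in SKBR3 and 9 in C5.2, against 21.2% and 25.9% of all genes. In the difference 2 were higher, near the 15.4% over all genes, and 4 lower, against 13.3%. Without the SKBR3 vehicle array of experiment 3, 1 was higher and 5 lower. INSIG1, a sterol sensor protein (-0.73 ± 0.17 SE), and IDI1, an isoprenoid enzyme (-0.69 ± 0.14 SE), fell in SKBR3, while LSS, which forms lanosterol (0.60 ± 0.13 SE), fell in C5.2. None of the 6 cholesterol calls, nor those of SCD (adjusted p = 0.0734) and SREBF1 (0.199), held without the block.

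**Figure D4:**
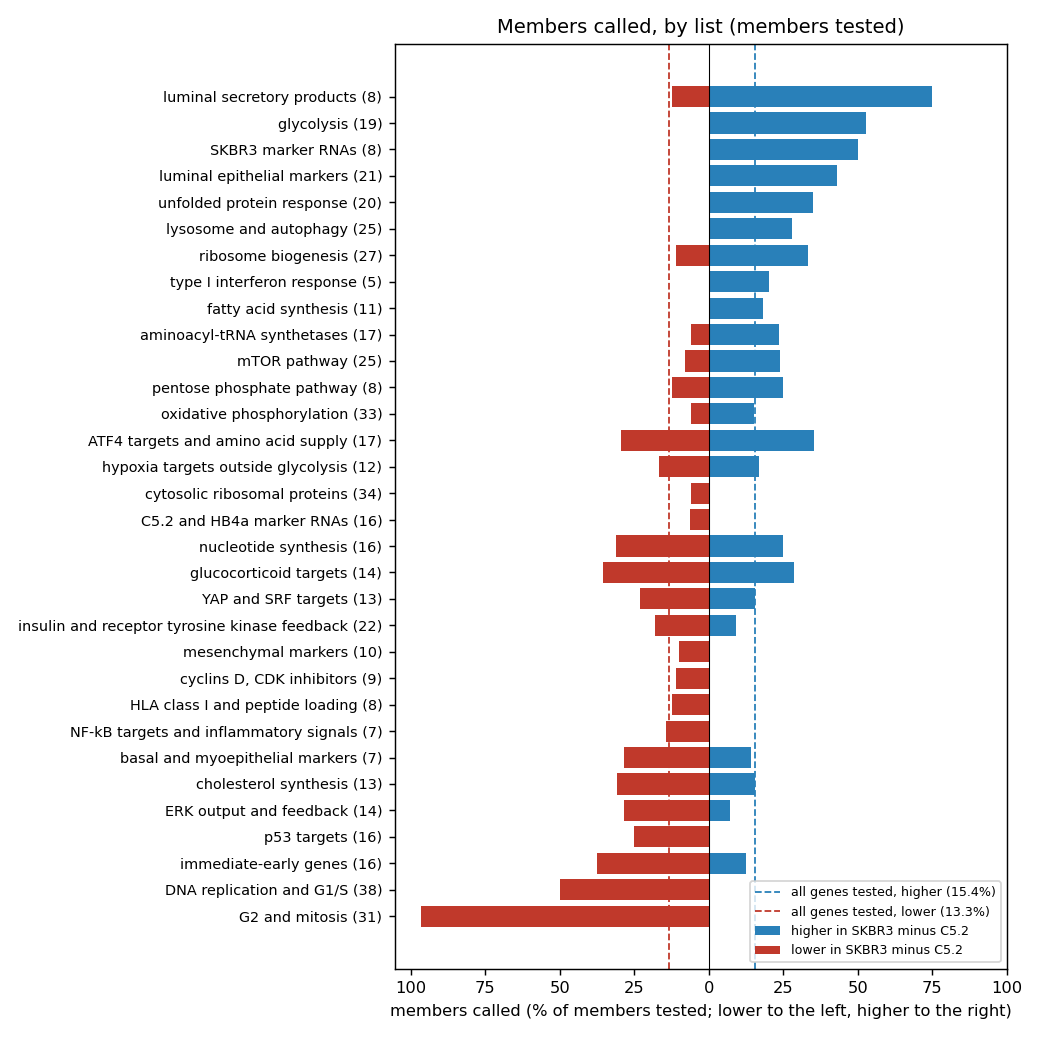
Share of the members tested that were called higher (blue, to the right) or lower (red, to the left) in SKBR3 minus C5.2, in percent, for each list with at least 5 members tested, whose number stands in brackets. Dashed lines mark all genes tested, 15.4% higher and 13.3% lower, and G2 and mitosis has 30 of 31 members lower.

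Of 21 luminal epithelial markers tested, 9 were higher and none was lower (7 and none without the SKBR3 vehicle array of experiment 3), against 15.4% higher and 13.3% lower over all genes. Without that array the shares over all genes were 11.7% and 11.1%. The median difference was 0.28, and of the 10 measured in both lines 5 were higher. KRT19, a luminal keratin, had 11.79 ± 0.08 in SKBR3 with rapamycin against 11.90 ± 0.07 with vehicle, and 6.78 ± 0.55 in C5.2 with rapamycin against 7.84 ± 0.44 with vehicle (SD, n = 5 each). It fell by 1.06 in C5.2, by 0.85 to 1.29 per experiment, and the difference was 0.94 ± 0.08 SE (adjusted p = 4.26e-06, and 0.0541 without the block). CLDN4, a tight junction protein, followed with a C5.2 fall of 0.44 (difference 0.64 ± 0.12 SE). None of the 9 luminal calls held without the block.

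Of 8 luminal secretory products tested, 6 were higher and 1 lower, against 15.4% and 13.3% over all genes. Without the SKBR3 vehicle array of experiment 3, 5 were higher and 1 lower, against 11.7% and 11.1% over all genes. The median difference was 0.58, but only 1 was measured in both lines. SCGB1D2, a secretoglobin, read 6.79, 6.95, 7.61, 6.85 and 6.28 in SKBR3 with rapamycin, against 5.67, 6.26, 6.09, 5.37 and 5.08 with vehicle. In C5.2 it lay at 0.18 to 0.51 on every array. It rose by 1.20 in SKBR3 (difference 1.22 ± 0.17 SE), and MUCL1, a small mucin, rose by 0.66 there. GRB7, the adaptor gene next to ERBB2 that is amplified with it, rose by 1.10 in SKBR3, while C5.2, whose HER2 comes from a transgene, had it at 1.74 to 2.23 (difference 1.10 ± 0.15 SE, adjusted p = 0.0684 without the block). ERBB3, the HER2 partner receptor, rose by 0.43 in SKBR3 and was also not measured in C5.2.

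Of 25 lysosome and autophagy genes tested, 7 were higher and none was lower (5 and none without the SKBR3 vehicle array of experiment 3). Over all genes 15.4% were higher and 13.3% lower, and without that array 11.7% and 11.1%. The median difference of the list was 0.27. Within the lines 14 rose and 1 fell in SKBR3 (median 0.26), against 15.4% and 21.2% of all genes, and 4 rose and 4 fell in C5.2 (median 0.00), against 12% and 25.9%. CTSD, the lysosomal protease cathepsin D, read 7.65, 7.69, 8.25, 7.88 and 7.86 in SKBR3 with rapamycin against 6.78, 7.41, 7.27, 7.51 and 7.35 with vehicle, and 3.91, 4.15, 4.44, 4.09 and 4.13 in C5.2 with rapamycin against 4.03, 4.24, 4.49, 4.37 and 4.19 with vehicle. It rose in SKBR3 and lay below 5 in C5.2 (difference 0.72 ± 0.14 SE), and NEU1, the lysosomal sialidase, rose by 0.63 in SKBR3 (difference 0.60 ± 0.16 SE). The CTSD call was the only one of the 7 that held without the block. In the unfolded protein response 7 of 20 were higher and none lower, against the same 15.4% and 13.3% over all genes. Without the SKBR3 vehicle array of experiment 3, 5 were higher and none lower, against 11.7% and 11.1% over all genes. The largest were XBP1, its transcription factor (0.47 ± 0.11 SE), and MANF, an endoplasmic reticulum chaperone cofactor (0.45 ± 0.09 SE). Both fell in C5.2.

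EGR1, an immediate-early transcription factor downstream of ERK, had the second most negative difference. It read 6.37, 8.80, 6.65, 6.16 and 6.20 in SKBR3 with rapamycin, against 6.15, 8.50, 7.22, 6.82 and 6.94 with vehicle. In C5.2 it read 9.44, 8.59, 7.68, 8.81 and 9.57 with rapamycin, against 7.01, 6.45, 6.31, 7.41 and 6.96 with vehicle. EGR1 rose by 1.99 in C5.2, in every experiment and without overlap, and went up in 2 and down in 3 SKBR3 experiments (difference -2.29 ± 0.26 SE, adjusted p = 3.09e-05, and 0.0415 without the block). Of the 16 immediate-early genes tested, 2 were higher and 6 lower, against 15.4% and 13.3% over all genes. Within the lines 6 rose in SKBR3 and 9 in C5.2, against 15.4% and 12% of all genes, and none fell. KLF6, a zinc finger factor, rose by 0.41 in SKBR3 and by 1.20 in C5.2, while JUN and JUND, the AP-1 subunits, rose by 0.63 and 0.49 in SKBR3 with no call in C5.2. Of the 14 genes of ERK output and feedback, 1 was higher and 4 lower (none and 4 without the SKBR3 vehicle array of experiment 3). Only 6 of the 14 were measured in both lines, with 1 higher and 1 lower. ERRFI1, an inhibitor of the HER receptors, rose by 1.16 in C5.2 and was not called in SKBR3 at 0.18 (difference -0.98 ± 0.14 SE). DUSP5 and DUSP6, phosphatases that switch ERK off, rose in C5.2 by 1.20 and 1.41. DUSP6 also rose in SKBR3, by 0.85, though neither gene passed the measured limit there. EGR1 was the only call of these lists that held without the block.

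Of the 22 genes of insulin and receptor tyrosine kinase feedback tested, 13 rose in SKBR3 and 15 in C5.2 and none fell in either, against 15.4% and 12% that rose over all genes. In the difference few were called either way, 2 higher and 4 lower (median -0.03), against 15.4% and 13.3% over all genes. Without the SKBR3 vehicle array of experiment 3, 2 were higher and 3 lower, against 11.7% and 11.1%. Only 10 of the 22 were measured in both lines, with 1 higher and 1 lower. TXNIP, an inhibitor of glucose uptake, read 9.31, 9.45, 9.50, 9.31 and 9.0 in SKBR3 with rapamycin against 8.19, 8.27, 8.51, 8.13 and 7.65 with vehicle, and 8.77, 8.65, 8.33, 8.53 and 8.89 in C5.2 with rapamycin against 7.98, 7.68, 7.46, 7.60 and 8.05 with vehicle. It rose by 1.17 in SKBR3 and by 0.88 in C5.2, without overlap in either line. IRS1 and the receptors INSR and IGF1R rose in both lines by 0.49 to 0.72, though none of the 3 passed 5 on 5 SKBR3 arrays. IRS2, an insulin receptor substrate, rose by 1.28 in C5.2, where it read 9.17, 8.05, 9.29, 9.13 and 8.84 with rapamycin against 7.25, 6.96, 8.17, 7.97 and 7.76 with vehicle. In SKBR3 it lay near the floor, at 1.31, 1.74, 1.22, 1.66 and 1.71 with rapamycin against 0.67, 1.34, 3.30, 0.72 and 1.42 with vehicle, the 3.30 being the array of experiment 3. Its difference of -1.24 ± 0.42 SE (adjusted p = 0.039) became -0.71 without that array (adjusted p = 0.0175), and the call was lost without the block (adjusted p = 0.165). CDKN1A and GDF15, which were not called, also turned sign without it, at 0.34 and 0.23 against -0.17 and -0.32 with it.

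Of the 25 mTOR pathway components tested, 6 were higher and 2 lower, against 15.4% and 13.3% over all genes, and without the SKBR3 vehicle array of experiment 3 4 were higher and 2 lower. Of the 8 calls 1 held without the block. EIF4E, the cap binding protein released by mTORC1 signalling, fell by 0.72 in SKBR3 (difference -1.0 ± 0.21 SE), and RHEB, the GTPase that activates mTORC1, fell by 0.30 there (difference -0.41 ± 0.07 SE). EIF4E was not measured in C5.2, where it averaged 3.82 with rapamycin and 3.54 with vehicle. AKT2, an upstream kinase (0.53 ± 0.12 SE), and TSC1, a partner in the complex that inhibits RHEB (0.46 ± 0.14 SE), were higher. AKT2 was not measured in C5.2 either. DDIT4, an mTORC1 inhibitor, fell in both lines, by 0.70 in SKBR3 and by 1.02 in C5.2, and DEPTOR, another inhibitor, rose in both, by 0.94 and 0.76. FKBP1A, the rapamycin receptor, was not called (0.17 ± 0.16 SE, adjusted p = 0.443).

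Glucocorticoid targets were on both sides, 4 higher and 5 lower of 14 tested, against 15.4% and 13.3% over all genes. Without the SKBR3 vehicle array of experiment 3, 4 were higher and 4 lower. The C5.2 medium held hydrocortisone while that of SKBR3 did not. FKBP5, a co-chaperone of the glucocorticoid receptor and itself bound by rapamycin, fell by 0.79 in SKBR3 and rose by 0.25 in C5.2. It had 5.65, 5.24, 5.29, 5.44 and 5.27 in SKBR3 with rapamycin against 6.51, 5.76, 6.36, 6.30 and 5.92 with vehicle, and 8.88, 8.33, 9.37, 9.39 and 9.15 in C5.2 with rapamycin against 8.49, 8.37, 9.11, 8.93 and 8.98 with vehicle (difference -1.04 ± 0.12 SE, adjusted p = 4.03e-05). The SKBR3 groups did not overlap, and the C5.2 groups did. MT1X, a metallothionein, rose by 0.88 in SKBR3 (difference 0.68 ± 0.11 SE). The part of the medium in these values was not tested.

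Counts in brackets for the next lists are those without the SKBR3 vehicle array of experiment 3. Over all genes 15.4% were higher and 13.3% lower, and without that array 11.7% and 11.1%. Ribosome biogenesis had 9 higher and 3 lower of 27 (7 and 2), with POLR1D (0.39) and UBTF (0.56), which act in RNA polymerase I transcription, on the higher side, and NOP58 (-0.69), DDX21 (-0.64) and NOLC1 (-0.49), which act in the nucleolus on ribosomal RNA, on the lower. POLR1D and NOLC1 were picked after their values were seen. Cytosolic ribosomal proteins had none higher and 2 lower of 34 (none and 4), with a median of -0.03. Of 17 amino acid supply genes controlled by ATF4, 10 fell in SKBR3 and 10 in C5.2, against 21.2% and 25.9% of all genes. In the difference 6 of them were higher and 5 lower (4 and 5). Of the 17 aminoacyl-tRNA synthetases 4 were higher and 1 lower (4 and 1). Of 33 oxidative phosphorylation genes 5 were higher, near the share over all genes, and 2 lower (3 and 3). Of 16 p53 targets, 4 were lower and none was higher (3 and none), among the 4 ZMAT3, an RNA binding protein (-0.70 ± 0.20 SE), and RPS27L, which fell by 0.32 in SKBR3 and rose by 0.31 in C5.2. Mesenchymal markers had none higher and 1 lower of 10 (1 and 2), and basal markers 1 higher and 2 lower of 7, a split that turned (2 and 1). The markers of C5.2 and HB4a had none higher and 1 lower of 16, with a median of -0.40 that became 0.04, with 3 higher and 1 lower, without the SKBR3 vehicle array of experiment 3.

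The same difference was then taken on the 20 arrays with doxorubicin in every group, as doxorubicin plus rapamycin minus doxorubicin alone. These arrays share no sample with the first 20, though they carry the same experiment numbers. There, 2402 of 6909 genes were called (34.8%), 1336 higher in SKBR3 (19.3%) and 1066 lower (15.4%). Of the 1916 genes called without doxorubicin and tested with it, 1900 had the same sign (99.2%), 1459 were called with the same sign (76.1%), and none was called with the opposite sign (limma, adjusted p). The same-sign share over all 6704 genes tested on both sets of arrays was not counted. How far 99.2% exceeds it is therefore not known. Of the genes called with doxorubicin that were also tested without it, 62.5% were called without it with the same sign. Across 6704 genes, which are not independent replicates, the differences without and with doxorubicin correlated with Pearson's r of 0.90 and Spearman's rho of 0.87.

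Of the G2 and mitosis genes, 30 of 31 were lower with doxorubicin too (median -1.20). Their median change was -1.11, -0.84, -1.01, -1.22 and -1.11 in the SKBR3 experiments and 0.10, -0.04, 0.27, 0.20 and 0.25 in the C5.2 experiments. CDK1 changed by -1.34 in SKBR3 and 0.505 in C5.2 on doxorubicin, and CCNO, EMP1, HILPDA and HK2 kept differences of 2.25, 1.32, 1.28 and 1.25. EGR1 kept its direction at -1.62 ± 0.22 SE, but in SKBR3 it was up in all 5 experiments on doxorubicin, by 0.41 to 1.08, and in C5.2 by 1.74 to 3.19. Glycolysis had 6 higher and 1 lower of 19, against 19.3% and 15.4% over all genes, with a median of 0.07. CTSD (0.22, adjusted p = 0.285) and FABP4, a fatty acid carrier (-0.03, adjusted p = 0.917), were no longer called.

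**Figure D5:**
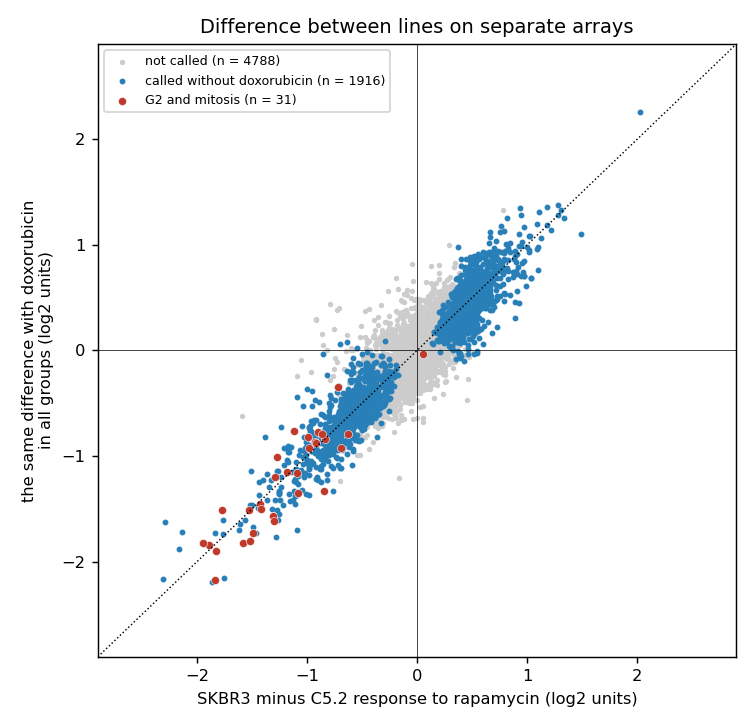
The SKBR3 minus C5.2 difference in response to rapamycin alone (x axis, log2 units) against the same difference on arrays with doxorubicin in every group (y axis, log2 units), 1 point per gene tested in both. Of the 1916 called genes in blue, 1900 have the same sign on both axes, and the G2 and mitosis genes lie at the lower left near the dotted line of equality. The same-sign share over all genes was not counted.

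HB4a, the line from which C5.2 was made and which shares its medium, was measured with the same arrays, and is given here beside the lines without a test against them. With rapamycin 736 of 5571 genes rose (13.2%) and 406 fell (7.29%), and without the block 105 were called. Of the 26 G2 and mitosis genes tested, 10 rose and none fell (median 0.17). The median change of the list was 0.42, 0.33, 0.33, 0.09 and 0.06 in the HB4a experiments, above 0 in all 5, against -1.49, -1.44, -1.31, -1.08 and -1.41 in the SKBR3 experiments. The HB4a rapamycin array of experiment 1, which gave the 0.42, correlated with its group at a median r of 0.913. That was the lowest of the 60 arrays, and HB4a counts without it were not made. CDK1 rose by 0.87 and TOP2A by 1.14 in HB4a. EGR1 rose by 1.26, ERRFI1 by 1.26 and IRS2 by 1.20 there, in the direction of C5.2. HK2 fell by 1.03, KRT19 by 0.74, HILPDA by 0.63 and SCD by 1.05, which were also called as falls in C5.2. EMP1 rose by 0.32 in HB4a, against 1.34 in SKBR3 and 0.04 in C5.2.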

How the data were processed

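The deposited log2 values are probe set summaries made by the authors with RMA, per the submitters' processing notes, which give no version. Their range of -0.6 to 13.08 was taken to mean base 2. Which arrays were summarised together is not given in the sources used here. The labels give no scan dates. The vehicle group is coded DRC in titles and was read as DMSO from the source names. Of 54675 probe sets, 41091 carried 1 gene symbol and 1801 several, which were not used, as were 11721 unnamed here and 62 controls. The rest gave 19775 genes, each read from the probe set with the highest mean.

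Genes over log2 5 on at least 5 of the 20 arrays were fitted with limma 3.58.1 in R 4.3.3 (package data.table, version 1.17.8), with the experiment number within line as a block and empirical Bayes with trend, which left 8 residual and 7.33 prior degrees of freedom. The number of arrays limits the precision. Tests were 2-sided. The script was tested on simulated data. Same-numbered rapamycin and vehicle arrays deviated together with r of 0.08 to 0.782 in SKBR3 and 0.095 to 0.747 in C5.2, so 2 of 10 pairs did not pass 0.1, and values without the block are given too. Plots used Python 3.11.15, pandas 2.3.3, numpy 2.4.6 and matplotlib 3.10.9.

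Genes were named as the 10 largest differences each way among called genes measured in both lines whose changes did not overlap, the 3 largest each way measured in 1 line, up to 2 called members each way of lists with 2 or more calls, and 17 fixed genes. Other list members named were chosen after their values were seen. Not every gene that the rules name is reported here. The members, the 34 lists and these rules were chosen with earlier results of these data known. Array centring, quantile normalization, filters, array weights, probe set averaging, all 40 arrays and left-out arrays were tried as alternatives.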

Additional observations from a re-analysis of the deposited data

Results flagged for a closer look

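Among 208 sets of 5 within-line changes of named genes, 12 held a value far from the other 4 (5.77%, where chance flags about 1 in 20). In SKBR3 experiment 3 these were CDKN1A (-2.51, others -0.29 to 0.35), GDF15 (-2.34, others 0.22 to 0.63) and IRS2 (-2.08, others 0.29 to 0.94). That is the experiment whose vehicle array held listed marker RNAs of C5.2 and HB4a. In the other SKBR3 experiments they were JUND in experiment 1 (0.96), TKT, NDRG1 and RPL7 in experiment 2 (-0.15, -0.51 and 0.06), CYCS in experiment 4 (-0.38) and ADM in experiment 6 (-0.25). In C5.2 they were ERBB2 and IRS2 in experiment 1 (0.52 and 1.92) and NOB1 in experiment 4 (-0.23).

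The test of the difference between lines called 1971 genes. Of the named genes, 13 were called in opposite directions. Those that rose in SKBR3 and fell in C5.2 had differences of 1.28 (HILPDA), 1.11 (LMCD1), 1.09 (CEBPD), 1.02 (SDC1), 0.99 (NET1), 0.64 (ADSL) and 0.56 (UBTF). Those that fell in SKBR3 and rose in C5.2 had differences of -1.89 (CDK1), -1.84 (TOP2A), -1.76 (CKAP2), -1.56 (NUSAP1), -1.04 (FKBP5) and -0.63 (RPS27L).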

How the results depend on the processing

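Without the replicate block 356 genes were called in the difference between lines, against 1971 with it, 1213 in SKBR3, 1072 in C5.2, 517 with doxorubicin and 105 in HB4a, with 8 DNA replication members lower. Of the 97 named genes that were called, 38 kept the call without the block, and 33 kept it under every setting run. The labels do not say that a number marks a shared day or culture. Without both the block and the SKBR3 vehicle array of experiment 3 the counts were 286, 1042 in SKBR3 and 1030 in C5.2, with 7 DNA replication members. A filter at log2 7 left 846, 1181 in SKBR3, 1223 in C5.2, 980 with doxorubicin and 16 G2 and mitosis members. Averaging probe sets left 1234, 1629, 1613 and 1450 in the same order, and array weights gave 3237. The cause of these shifts was not tested, apart from fewer genes tested at the stricter filter (2637) and after averaging (3999). Quantile normalization moved the share of rises among C5.2 calls to 43.5%, against 31.7% as reported, and among SKBR3 calls to 51.5%, against 42.0%.

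Leaving out 1 experiment gave 1335 to 2486 calls. In SKBR3 they ranged over 1960 to 2651, in C5.2 over 1758 to 2762 and with doxorubicin over 1625 to 2547. Without SKBR3 experiment 1 and C5.2 experiment 2, a choice made after seeing the data, 1578 were called, 648 higher and 930 lower.

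Signs turned for SARS1 (-0.11), TPM1 (-0.10) and CCND1 (0.0083) when probe sets were averaged, and for CCND1 with quantile normalization (0.0475). Without the SKBR3 vehicle array of experiment 3 they turned for CDKN1A (0.3384) and GDF15 (0.2324), and without the block as well for CCND1 (0.0277), CDKN1A (0.2831) and GDF15 (0.4042). Without SKBR3 experiment 1 and C5.2 experiment 2 they turned for IRS1 (-0.0576) and CCND1 (0.0298). CCND1 also turned without SKBR3 experiment 1 (0.0079) or 6 (0.0026), and IRS1 without C5.2 experiment 2 (-0.0167). Over the left-out experiments CDKN1A ranged from -0.3781 to 0.3384, GDF15 from -0.5103 to 0.2324 and IRS1 from -0.0167 to 0.1327. None of CCND1, CDKN1A, GDF15 and IRS1 was called in the difference.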
